A study of Mus musculus with 54 samples.

Results

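Of the 18 cerebellum libraries of this mouse study, 4 held reads from the Hox genes at 65.9 to 599 CPM, and the other 14 held 0.110 to 5.05 CPM, where CPM are counts scaled to a library total of 1000000 gene counts. The 4 libraries were chosen by a single measure, the summed CPM of the 39 genes named Hoxa, Hoxb, Hoxc or Hoxd with a number, and both genotypes were pooled. Libraries at 50 CPM or more formed the first group, called Hox-rich here, and libraries under 10 the second, called Hox-poor, and 0 libraries lay between. The 18 libraries were part of a series of 54, with 1 library from each of cerebellum, cortex and striatum of 18 mice.

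All mice were 8 weeks old and on a C57BL/6 background, 10 Mbd5+/GT and 8 wild-type (WT) littermates. Mbd5+/GT mice carry a gene trap (pU-21B) in the second intron of 1 copy of Mbd5, which leaves a hypomorphic allele in every cell of the animal, so the mutation is not limited to the cerebellum. The labels call this genotype an Mbd5 heterozygous deletion. The Hox-rich group held 2 Mbd5+/GT mice (M756 and M755) and 2 WT mice (M761 and M754). The Hox-poor group held 8 Mbd5+/GT and 6 WT mice. Polyadenylated RNA from frozen tissue was sequenced, and 25611034 to 45718952 reads per cerebellum library were counted on genes. Because the groups were selected on the Hox counts of the same libraries, the Hox values of one group against the other are a description without a test, and the tests of other genes state how closely a gene followed this division of the libraries, not the effect of a condition.

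Hox genes encode homeobox transcription factors that lie in 4 clusters and are numbered by paralogue group along each cluster. Their order in the cluster follows their order along the body axis, with low numbers expressed from the hindbrain backwards and higher numbers only further back in the spinal cord. The cerebellum forms at the front of the hindbrain, ahead of the Hox domains, and consists mainly of granule cells, Purkinje cells, inhibitory interneurons and glia. The medulla and pons lie directly beneath it and hold motor, monoaminergic, glycinergic and glutamatergic neurons with heavily myelinated axons.

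The sequences before the start sites of 3 genes that the values turn on are shown from RefSeq: Hoxa5, which was counted in each of the 4 libraries, Hoxb8, whose share of the Hox counts differed most among them, and Gabra6, a granule cell gene. Each run has the 250 bases before the start, and capitals mark a match to TGATNNAT on either strand, the sequence bound by Hox proteins together with Pbx cofactors.
Hoxa5 (GRCm38, chr6:52204588-52204837, minus strand): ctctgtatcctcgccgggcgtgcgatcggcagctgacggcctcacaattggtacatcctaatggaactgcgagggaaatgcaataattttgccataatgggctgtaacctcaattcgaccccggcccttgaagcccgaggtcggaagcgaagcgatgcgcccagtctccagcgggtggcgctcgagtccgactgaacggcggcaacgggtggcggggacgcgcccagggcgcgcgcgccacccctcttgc
Hoxb8 (GRCm38, chr11:96281655-96281904, plus strand): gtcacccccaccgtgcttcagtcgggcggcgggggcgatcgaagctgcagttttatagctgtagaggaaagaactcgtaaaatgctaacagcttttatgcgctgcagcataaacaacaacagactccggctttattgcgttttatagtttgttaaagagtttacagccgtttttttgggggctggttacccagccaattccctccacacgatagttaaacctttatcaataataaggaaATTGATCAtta
Gabra6 (GRCm38, chr11:42321073-42321322, minus strand): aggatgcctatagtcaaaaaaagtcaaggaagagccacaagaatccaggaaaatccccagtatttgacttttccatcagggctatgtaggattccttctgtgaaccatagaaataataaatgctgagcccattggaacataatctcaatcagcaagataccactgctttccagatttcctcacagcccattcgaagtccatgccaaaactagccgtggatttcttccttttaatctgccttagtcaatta
The motif matched once, on the opposite strand, in the Hoxb8 run and did not match in the other two. Over 32851 RefSeq windows of 300 bases, 2906 (8.85%) held at least 1 match, and a match is a description of letters. Windows were found for 22 of the 39 Hox genes.

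The Hox sum stood at 65.9 CPM in mouse M756 (2358 counts), 68.6 in mouse M761 (2079 counts), 176 in mouse M754 (5912 counts) and 599 in mouse M755 (18576 counts). The highest library of the other group was that of WT mouse M762 at 5.05 CPM (147 counts), followed by Mbd5+/GT mouse M768 at 1.62 (58 counts), and the median of the 14 was 0.419. In the cortex of the same 18 mice the Hox genes had 0 to 11 counts in a library, and in striatum 4 to 16. The lowest member of the Hox-rich group therefore lay above every other library of the series, and mouse M755 stood well above the other 3.

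**Figure D1:**
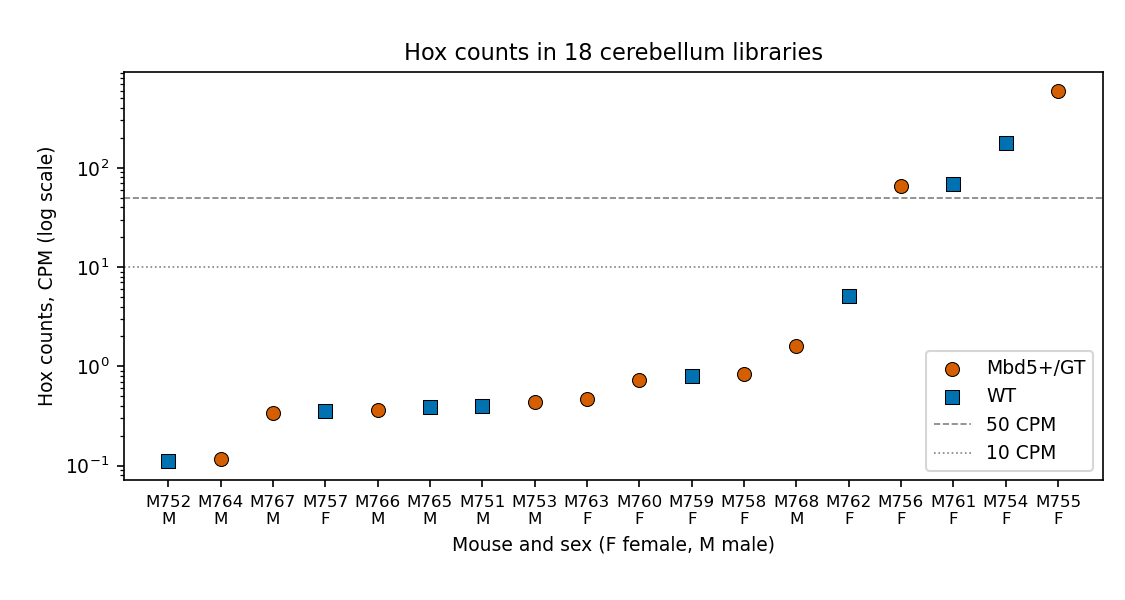
Hox CPM (log axis) in each of the 18 cerebellum libraries, ordered by value, with mouse number and sex below each point, circles for Mbd5+/GT and squares for WT, and lines at the limits of 50 and 10 CPM. The 4 libraries of mice M756, M761, M754 and M755 lie at 65.9 to 599, and the library nearest below them is that of mouse M762 at 5.05.

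Defining markers of the labelled tissue were checked next. Gabra6, the granule cell subunit of the GABA-A receptor, had 734, 677, 231 and 1.81 CPM in mice M756, M761, M754 and M755, against 574 to 953 (median 769) in the 14. Its highest value in any cortex or striatum library was 7.64. Summed over 11 granule cell genes, the 4 libraries stood at 85.3, 70.3, 33.9 and 3.31% of the median of the 14, and over 12 Purkinje cell genes at 86.8, 61.7, 29.99 and 3.59%. The library labelled cerebellum of mouse M755 thus held granule cell transcripts within the range of the cortex libraries, where the list summed to 149 to 245 CPM against 209 in mouse M755, and its Purkinje cell sum of 338 lay below the 841 to 1242 of cortex. Its data go against its label, so the counts of called genes, over all genes and over most lists, are also given without it. Mice M756 and M761 kept most of both signals, and mouse M754 held 33.9% and 29.99% of the 2 medians.

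Within the Hox genes, 21 of 39 had a count in each of the 4 libraries, 29 in at least 1, and 10 had no count in any cerebellum library. For 19 genes the lowest of the 4 values was above every value of the 14, and of these only Hoxa6 had no count in the 14. Over all 39 genes, 17 had no count in the 14, including the 10 with none in any cerebellum library. A count of 0 allows up to 3 counts in a library. These are the values that chose the libraries, so nothing is read from them beyond their pattern.

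Hoxa5 had 11.8, 11.2, 27.1 and 64.7 CPM in mice M756, M761, M754 and M755, against 0 to 0.550 (median 0.0335) in the 14. Hoxb5, its paralogue in the second cluster, had 13.4, 11.1, 38.3 and 86.48, against 0 to 0.413 (median 0.0379). Hoxb3, expressed further forward in the hindbrain, had 6.84, 10.8, 19.6 and 36.8, against 0 to 0.447 (median 0.0521). For all 3 genes mouse M755 was highest and mouse M754 next, and mice M756 and M761 lay lower but clear of the 14.

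Hoxb8 followed another pattern. This gene of paralogue group 8 had 4.64, 2.41, 7.21 and 116 CPM, so that mouse M755 exceeded mouse M754 by 16.1 times, against 2.39 times for Hoxa5 and 2.26 times for Hoxb5. Hoxa7 had 0.112, 0.165, 0.566 and 24.9, Hoxd8 0.140, 0.0660, 0.238 and 28.49 and Hoxc6 0.140, 0.396, 0.566 and 14.7 CPM in the same order of mice. Hoxb9 had 367 counts in mouse M755 and 0 in each of the other 17 cerebellum libraries, and Hoxc8 had 90 and 0. In all, 6 Hox genes were counted in mouse M755 and in none of the other 3 Hox-rich libraries.

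As shares of the Hox counts, paralogue groups 6 to 8 took 17.0% (exact 95% interval 15.6 to 18.6), 11.3% (9.93 to 12.7) and 11.1% (10.4 to 12.0) in mice M756, M761 and M754, and 43.4% (42.7 to 44.2) in mouse M755. Groups 4 and 5 took 61.8%, 57.6%, 62.6% and 41.5%. Groups 9 to 13 had 0, 1 and 5 counts in mice M756, M761 and M754 and 439 in mouse M755. The intervals cover counting error only, and shares are of counts, not of transcripts, since no length was divided out. Mouse M755 therefore carried a mixture of Hox genes weighted towards higher paralogue numbers, while the other 3 had 61.8%, 57.6% and 62.6% in groups 4 and 5. Those 3 differed among themselves too, with 21.1% (19.5 to 22.8), 31.1% (29.1 to 33.1) and 26.2% of the counts in groups 1 to 3. Just outside the group, mouse M762 had 46.3% (38.0 to 54.7) of its 147 Hox counts in groups 6 to 8, mouse M768 had 34.5% (22.5 to 48.1) of 58 and mouse M758 had 3.85% (0.0973 to 19.6) of 26. The intervals of mice M762 and M768 include the share of mouse M755 and none of the other 3.

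**Figure D2:**
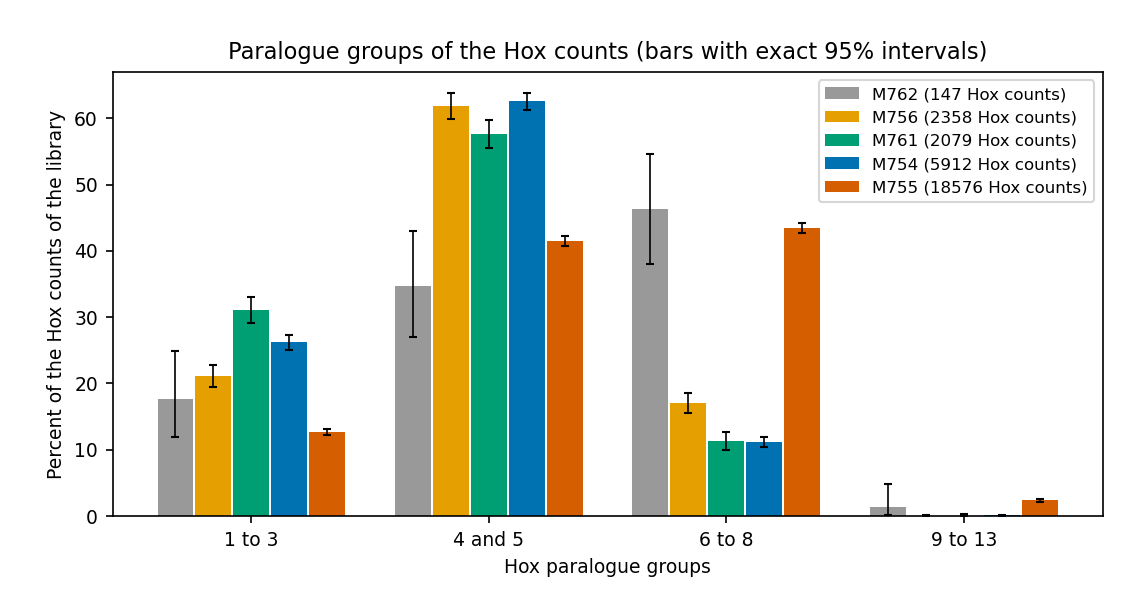
Percent of the Hox counts of a library (vertical axis) in 4 sets of paralogue groups, for mouse M762 and the 4 Hox-rich libraries, as bars with exact 95% intervals for counting error. Groups 6 to 8 hold 43.4% in mouse M755 and 46.3% in mouse M762, against 11.1% to 17.0% in mice M756, M761 and M754.

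Of 19 genes beside and within the Hox clusters, 7 had no count in the 4 libraries, among them Hottip and Hotair, and 12 had counts in at least 1. Evx1, a homeobox gene at the end of the Hoxa cluster that spinal interneurons express, had 0.447, 0.792, 2.29 and 2.65 CPM in mice M756, M761, M754 and M755, against 0 to 0.0836 (median 0.0169) in the 14. Evx2, at the end of the Hoxd cluster, had 0.335, 1.19, 2.47 and 1.000, against 0.0289 to 0.487 (median 0.342), so mouse M756 lay inside the range of the 14. The antisense RNA Hoxb3os had 1.76, 3.56, 6.08 and 7.23, against 0 to 0.237 (median 0.0905). Hoxd3os1 had 1, 0 and 2 counts in mice M756, M761 and M754 and 99 in mouse M755. Which strand column the counts came from is not given in the sources used here, so reads of a Hox gene and of an overlapping antisense RNA cannot be told apart.

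Across the other 19279 genes tested by edgeR, 3641 (18.9%) were higher and 2812 (14.6%) lower in the 4 libraries at an adjusted p under 0.05. For 1196 genes (6.2%) each of the 4 values lay above all 14, and for 353 (1.83%) below. At a change of at least 2-fold, 1704 were higher and 342 lower. Without mouse M755, 2374 of 19517 genes (12.2%) were higher and 1340 (6.87%) lower, and 2351 and 1312 of these were among the genes called with it. Without mice M754 and M755, 859 of 19341 (4.44%) were higher and 173 (0.894%) lower. In bulk tissue, a change in the number of cells of a type and a change in RNA per cell cannot be told apart.

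All 4 Hox-rich libraries came from females, whereas the other group held 6 females and 8 males. The 4 genes with the lowest fold changes, Eif2s3y, Uty, Ddx3y and Kdm5d, lie on the Y chromosome. They had at most 0.0989 CPM in any of the females and at least 14.04 in any of the males, so their calls follow sex. Among females only, 1368 genes were higher and 225 lower.

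The largest increases among genes with a mean of 1 or more CPM were led by Chat, the enzyme that makes acetylcholine (GRCm38, chr14:32408203-32465989). Of the 15 largest, 6 (Chat, Pax8, Prrxl1, Hoxaas2, Pou4f1 and Chodl) passed the filter on low counts only through the 4 Hox-rich libraries, as did 566 of all 19279 genes tested, of which 263 were called higher, so their place in this ranking is a description. Chat had 0.531, 1.12, 6.02 and 18.01 CPM in mice M756, M761, M754 and M755, against 0 to 0.0974 (median 0.0308) in the 14, a log2 fold change of 7.56 ± 0.64 (SE) from 13 counts in the 14 together. Pax8, a paired-box factor of spinal and hindbrain interneurons (chr2:24420560-24475599), had 2.77, 3.13, 9.59 and 15.8, against 0 to 0.138 (median 0.0484) (7.14 ± 0.42). Lamp5, a lysosome-associated membrane protein of neurons, reached 54.1, 77.6, 207 and 283, against 0.271 to 4.09 (median 1.502) (6.64 ± 0.43). In cortex and striatum libraries Chat reached 29.5 CPM (median 6.21) and Lamp5 295 (median 140), whereas Pax8 reached 0.357 (median 0.0350). Each of the 15 genes with the largest increase lay above all 14 in all 4 libraries, and each remained higher without mouse M755. The 15 were picked for their change between these same libraries, so both statements are descriptions and no support.

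The other members of that set were Prrxl1 and Pou4f1, homeobox factors of sensory neurons, Slc5a7, the choline transporter, Prph, a neurofilament protein of motor and sensory neurons, Glra1, a subunit of the adult glycine receptor, Tacr1 and Tacr3, receptors for tachykinin peptides, Tac2, a tachykinin precursor, Chodl, a marker of fast motor neurons, Dgkk, a diacylglycerol kinase, Arhgap36, and Hoxaas2, an RNA transcribed within the Hoxa cluster. Their log2 fold changes ran from 5.51 for Tac2 to 6.87 for Prrxl1. Tac2 had 1.01, 0.891, 1.76 and 23.9 CPM and Chodl 0.754, 1.42, 2.98 and 19.9. For both genes most of the signal came from mouse M755, in which Tac2 was 13.6 and Chodl 6.69 times as high as in mouse M754.

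Below the Y-linked genes, the largest decreases were Cpsf4l, Tssk5, Vdac3-ps1, Tgm5, Tmprss3 and Pkp3, with log2 fold changes of -1.96 to -1.51. Tgm5, a transglutaminase, had 2.68, 1.19, 1.07 and 0.129 CPM in mice M756, M761, M754 and M755, against 3.59 to 5.10 (median 4.26), with no overlap (-1.75 ± 0.35, adjusted p = 0.000924). Pkp3, a plakophilin of cell junctions, had 11.7, 5.84, 3.96 and 0.290, against 10.54 to 20.8 (median 15.7), and mouse M756 lay inside the range of the 14. Both fell with rising Hox counts across the 4 libraries, to 0.129 and 0.290 CPM in mouse M755. Vdac3-ps1 is a pseudogene whose reads may belong to its parent gene.

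Genes whose log2 values followed the Hox counts most closely over the 18 libraries were Tshz2, Gabra3, Hoxaas2, Pax8, Htr1a, Prrxl1, Col11a1, Trhr, Gabra5 and Neto1, with Pearson coefficients from 0.979 to 0.971. The coefficients describe 18 points of which 4 stand apart, on a scale that shares each library's depth. Gabra5, a GABA-A receptor subunit, had 17.96, 23.2, 46.7 and 70.3 CPM in mice M756, M761, M754 and M755, against 0.490 to 2.24 (median 1.10) in the 14. Htr1a, a serotonin receptor, had 5.59, 6.43, 15.3 and 19.1, against 0.145 to 0.584 (median 0.341). Tshz2, a zinc finger factor, had 21.51, 28.96, 57.05 and 106, against 2.93 to 7.29 (median 4.06). These genes were not particular to the Hox-rich libraries. In cortex and striatum libraries Gabra5 reached 71.2 CPM (median 42.2), Htr1a 34.4 (median 13.3) and Tshz2 65.4 (median 22.3). These genes were picked for following the Hox counts, so their separation from the 14 and their order among the 4 libraries are descriptions. Of the 3641 genes called higher, 2545 had mice M756 and M761 below mouse M754 and mouse M754 below mouse M755. The order was not counted over the other genes tested. The calls came from these same values, so this count is a description too.

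Gene lists of cell types were described next, each beside all genes tested, of which 18.9% were higher and 14.6% lower with a median log2 fold change of -0.01 (12.2% and 6.87% without mouse M755). In the fit without mice M754 and M755 these shares were 4.44% and 0.894%. Of 153 listed genes that passed the filter, 16 passed only through the 4 Hox-rich libraries, and all 16 were called higher, so counts and medians are also given over the other genes. The 16 included 9 of the 15 transcription factors, 3 neuropeptides and 2 cholinergic genes.

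Among 17 transcription factors of hindbrain and spinal neurons that are not Hox genes, 15 could be tested and 9 of these passed the filter only through the Hox-rich libraries. The list includes Evx1 and Evx2, which lie at the ends of the Hoxa and Hoxd clusters. Both were called higher, and Evx2 is among the other 6, so these counts are not separate from the loci that chose the libraries. Of the other 6, 4 were higher and 0 lower, with a median of 1.17 (1.001 without mouse M755), and of all 15, 13 were higher (12 without mouse M755). The fit without mice M754 and M755 tested 10 of the factors and called 4 higher. Lbx1, a homeobox factor of dorsal interneurons named here after its values were seen, had 6.73, 5.08, 10.96 and 12.3 CPM in mice M756, M761, M754 and M755, against 2.54 to 5.05 (median 4.57) (1.10 ± 0.20, adjusted p = 0.000385). Its call by edgeR was lost without mice M754 and M755 (adjusted p = 0.213). Lhx4, a LIM homeobox factor of motor neuron and interneuron precursors, was among the 9, with 0.251, 0.561, 2.12 and 6.23 against 0 to 0.0656 (median 0), in the order of the Hox counts. Phox2a did not pass the filter, with 0, 0.132, 0.209 and 0.774. Tlx3 had 3.74, 3.13, 2.03 and 2.29 against 2.14 to 9.16 (median 4.29), and its log2 fold change of -0.77 ± 0.31 missed the threshold (adjusted p = 0.0599).

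Of 8 cholinergic and motor neuron genes 6 could be tested and 2 of these passed the filter only through the Hox-rich libraries. The other 4 were all higher, with a median of 4.80 (3.53 without mouse M755), as were all 6 with and without mouse M755. The fit without mice M754 and M755 tested 5 and called all 5 higher. Slc5a7 had 3.38, 7.72, 20.1 and 72.3 CPM in mice M756, M761, M754 and M755, against 0.0732 to 0.904 (median 0.301) (6.26 ± 0.48). Slc18a3, the vesicular acetylcholine transporter, had 0.112, 0.462, 4.32 and 25.4, against 0 to 0.103 (median 0.0139), but missed the filter through its few counts in mouse M756. Calca, which encodes the peptide CGRP of motor and sensory neurons, had 1.73, 2.84, 5.54 and 24.1, against 0.309 to 1.27 (median 0.688) (3.59 ± 0.40). Every gene of this group was highest in mouse M755, and Slc5a7 was 3.60 and Slc18a3 5.88 times as high there as in mouse M754.

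Transporters and receptors of glycine and glutamate signalling showed a flatter profile. Of 7 genes, 6 were higher with and without mouse M755, with a median of 2.88 (2.46 without it). The fit without mice M754 and M755 called 5 of the 7 higher. Slc17a6, the vesicular glutamate transporter of most brain stem excitatory neurons, had 66.3, 118, 224 and 261 CPM in mice M756, M761, M754 and M755, against 4.28 to 33.1 (median 21.03) (3.01 ± 0.30, adjusted p = 3.85e-07). Slc6a5, the neuronal glycine transporter, which cerebellar Golgi cells also express, had 95.9, 121, 334 and 443, against 23.6 to 51.1 (median 31.03) (2.88 ± 0.25, adjusted p = 9.00e-08). Glra1 had 8.27, 20.51, 26.3 and 36.4, against 0.0289 to 2.03 (median 0.231). Mouse M755 exceeded mouse M754 by 1.17 times for Slc17a6, 1.32 times for Slc6a5 and 1.38 times for Glra1, against 3.40 times for the Hox sum. Slc32a1, the vesicular transporter that all GABA and glycine neurons share, had 100.4, 67.9, 140.0 and 159.9 against 70.9 to 139.8 (median 105) and was not called (0.20 ± 0.18, adjusted p = 0.449).

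Monoaminergic genes had a smaller median change. Of 10 genes, 8 could be tested and 6 were higher (5 without mouse M755), with a median of 1.96 (1.40 without mouse M755). The edgeR fit without mice M754 and M755 called 0 of the 8, with 2 at an unadjusted p under 0.05. Over the 7 that did not need the Hox-rich libraries to pass the filter, 5 were higher with a median of 1.82. In 1 gene, Pnmt, all 4 values lay above the 14, at no more than 0.119 CPM. Th, the first enzyme of catecholamine synthesis, had 12.8, 7.75, 6.70 and 9.91 CPM in mice M756, M761, M754 and M755, against 3.27 to 7.95 (median 5.39) (0.76 ± 0.20). Dbh, which makes noradrenaline, had 0.279, 1.62, 2.12 and 5.23, against 0 to 3.18 (median 0.150), and Slc6a4, the serotonin transporter, 0, 0.627, 2.23 and 5.49, against 0 to 0.455 (median 0.0364). For Th the highest library was mouse M756, for Dbh only mouse M755 lay above the range of the 14, and for Slc6a4 mouse M756 lay inside it. The Dbh call was lost without mouse M755 (adjusted p = 0.164).

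Of 16 neuropeptide genes 15 could be tested and 3 of these passed the filter only through the Hox-rich libraries. Of the other 12, 8 were higher and 0 lower, with a median of 3.18 (2.25 without mouse M755), and of all 15, 11 were higher with and without mouse M755. The fit without mice M754 and M755 tested 14 and called 9 higher. Tac1, the precursor of substance P, had 5.33, 6.86, 18.02 and 32.7 CPM in mice M756, M761, M754 and M755, against 0.229 to 2.28 (median 0.467). Trh, thyrotropin-releasing hormone, had 0.0559, 1.32, 2.14 and 10.52, against 0 to 0.138 (median 0.0367) (5.71 ± 0.64). It passed the filter only through the Hox-rich libraries, with 27 counts in the 14 together, and mouse M756 lay inside the range of the 14. Crh, the corticotropin-releasing hormone made by neurons of the inferior olive, had 0.223, 1.32, 5.69 and 8.42, against 0.0289 to 0.183 (median 0.0944). Penk, an opioid precursor that cerebellar cells express, had 83.6, 75.6, 129 and 158 against 68.9 to 112 (median 85.2) and was not called (adjusted p = 0.0863). Npy, Cck and Nmb were not called either, and their 4 values overlapped the range of the 14.

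Myelin genes and most axon genes were higher. All 13 oligodendrocyte and myelin genes were higher with and without mouse M755, with a median of 1.42 (0.95 without it). Mbp, myelin basic protein, had 3679.7, 3879, 8034 and 13837 CPM in mice M756, M761, M754 and M755, against 1703 to 3630.3 (median 2473) (1.54 ± 0.23). Without mice M754 and M755, 5 of the 13 were called. Of 10 large axon and neurofilament genes 7 were higher, with and without mouse M755, and Ina, Kcna1 and Kcna2 were not called. The fit without mice M754 and M755 called 4 of the 10 higher. Nefl, the light neurofilament chain, had 369, 516, 1216 and 1688, against 155 to 366 (median 229) (2.02 ± 0.24), Nefm 217, 273, 955 and 1336, against 108 to 266 (median 143), and Sncg 7.32, 18.6, 42.48 and 63.2, against 1.02 to 6.95 (median 2.13) (3.65 ± 0.38). Nefm overlapped the 14 in mouse M756 and Nefl in none.

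Some genes of cerebellar neurons were lower. Of 11 granule cell genes 5 were lower and 0 higher, with a median of -1.07 (-0.66 without mouse M755, where 7 were lower). Cbln1, a secreted synaptic organiser, had 648, 433, 327 and 52.8 CPM in mice M756, M761, M754 and M755, against 633 to 1054 (median 818) (-1.20 ± 0.34, adjusted p = 0.011). Gabra6, with the values given above, was not called (-0.96 ± 0.62, adjusted p = 0.252), nor was Neurod1 (376, 288, 125 and 3.90, against 295 to 470.0 (median 426), adjusted p = 0.12). Both were near 0 in mouse M755 and within or close to the range of the 14 in mice M756 and M761.

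For Purkinje cells, 8 of 12 genes were lower and 0 higher, with a median of -1.12 (-0.80 without mouse M755, where 10 were lower). Pcp2, a Purkinje cell protein, had 292, 149.8, 100.1 and 1.65 CPM in mice M756, M761, M754 and M755, against 214 to 537 (median 365) (-1.46 ± 0.59, adjusted p = 0.0635). Calb1, calbindin, had 1223, 894, 376 and 75.4, against 1119 to 1550.2 (median 1399) (-1.11 ± 0.38, adjusted p = 0.0294). Homer3, a postsynaptic scaffold, had 282, 158, 106 and 18.7, against 248 to 431 (median 354) (-1.31 ± 0.37). Without mice M754 and M755 edgeR called 0 of the 12, with 9 at an unadjusted p under 0.05, and 4 granule cell genes.

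**Figure D3:**
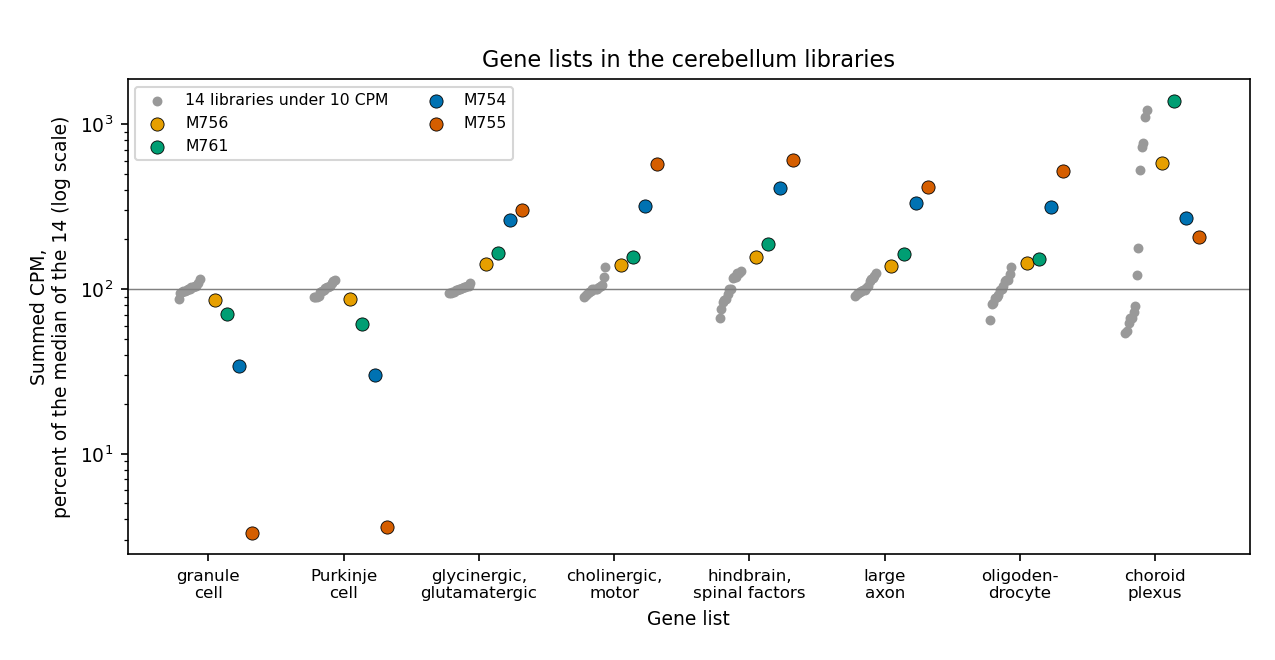
Summed CPM of 8 gene lists in each cerebellum library, as a percent of the median of the 14 Hox-poor libraries (log axis), with grey points for those 14 and coloured points for mice M756, M761, M754 and M755. Granule cell genes fall from 85.3% in mouse M756 to 3.31% in mouse M755, lists of brain stem neurons and myelin rise in the same order of mice, and the choroid plexus list varies among the 14 by over an order of magnitude.

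Glial, vascular and neighbouring tissues gave a mixed picture. Of 10 astrocyte and Bergmann glia genes, 4 were higher and 2 lower, and without mouse M755 2 were higher and 2 lower. Gfap, an astrocyte filament protein, had 224, 215, 307 and 1409.5 CPM in mice M756, M761, M754 and M755, against 100.5 to 225 (median 167) (1.74 ± 0.31, and 0.63 without mouse M755), while Gdf10, a Bergmann glia gene, had 143, 97.2, 44.1 and 4.39, against 136 to 194 (median 161) (-1.14 ± 0.43). The first was 4.59 times as high in mouse M755 as in mouse M754, and the second was lowest there. Slc1a3, the glutamate transporter that Bergmann glia express strongly, was lower as well, and Slc1a2, its counterpart in other astrocytes, was higher.

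The choroid plexus lies in the roof of the ventricle between cerebellum and brain stem. Of its 12 listed genes edgeR called 0, with 0 at an unadjusted p under 0.05, and DESeq2 called 0. The list summed to 1917, 4572, 889 and 681 CPM in mice M756, M761, M754 and M755, against 178 to 4037 (median 329) in the 14, so the groups overlapped. Most of the sum in mice M754 and M755 came from 1 gene, Enpp2, at 615 and 651 CPM, against 143 to 1452 (median 209) in the 14. The sums of these mice therefore say little about the other genes of the list. Ttr, the transthyretin gene, had 1077, 2388, 231 and 8.20, against 4.05 to 2381 (median 86.6), with the lowest of the 4 values in mouse M755. Of 5 erythrocyte genes edgeR called 0, with 0 at an unadjusted p under 0.05, and DESeq2 called 0, and their sum of 93.01, 115, 163 and 386 lay within the 71.7 to 460.3 (median 166) of the 14. Of 10 meningeal fibroblast genes 1 was higher and 3 lower (1 and 2 without mouse M755). The higher gene was Col1a1 (11.9, 8.25, 23.00 and 16.01, against 4.30 to 13.6 (median 8.07)). Whether any of these tissues had a part in the other results was not tested.

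Of 10 forebrain genes 8 could be tested and 5 were higher, a count that fell to 3 without mouse M755. Drd2, the dopamine D2 receptor, had 2.32, 2.61, 7.30 and 12.6 CPM in mice M756, M761, M754 and M755, against 0.116 to 0.734 (median 0.331) (4.13 ± 0.35), with no overlap. Neurod6 and Tbr1, factors of cortical neurons, were not called. Of 8 midbrain factors 3 could be tested, 1 higher and 1 lower with and without mouse M755. Barhl2 was lower at 30.53, 21.6, 11.98 and 0.936, against 31.3 to 45.96 (median 40.3), and Foxb1, which brain stem nuclei express too and which passed the filter only through the Hox-rich libraries, was higher at 0.447, 0.594, 1.58 and 1.42, against 0.0367 to 0.181 (median 0.104). Otx2, which is also in the choroid plexus list, was not called, and the dopaminergic factors Pitx3, Foxa1 and Foxa2 had at most 0.0716 CPM in any cerebellum library.

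TALE homeobox proteins bind DNA together with Hox proteins. Of 9 genes 3 were higher and 2 lower (3 and 1 without mouse M755), with a median of -0.02. Meis2 had 19.4, 39.4, 95.8 and 90.52 CPM in mice M756, M761, M754 and M755, against 1.36 to 8.25 (median 5.12) (3.61 ± 0.30, adjusted p = 5.54e-08), the widest separation of the family. Pbx3 had 26.1, 25.9, 39.3 and 47.6, against 20.97 to 25.4 (median 22.51) (0.61 ± 0.11). Meis1, a cofactor that granule cells express, was lower (51.7, 46.8, 39.9 and 26.4, against 50.2 to 62.6 (median 59.50), -0.51 ± 0.12). Meis2 in mouse M755 was 0.944 times its value in mouse M754.

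**Figure D4:**
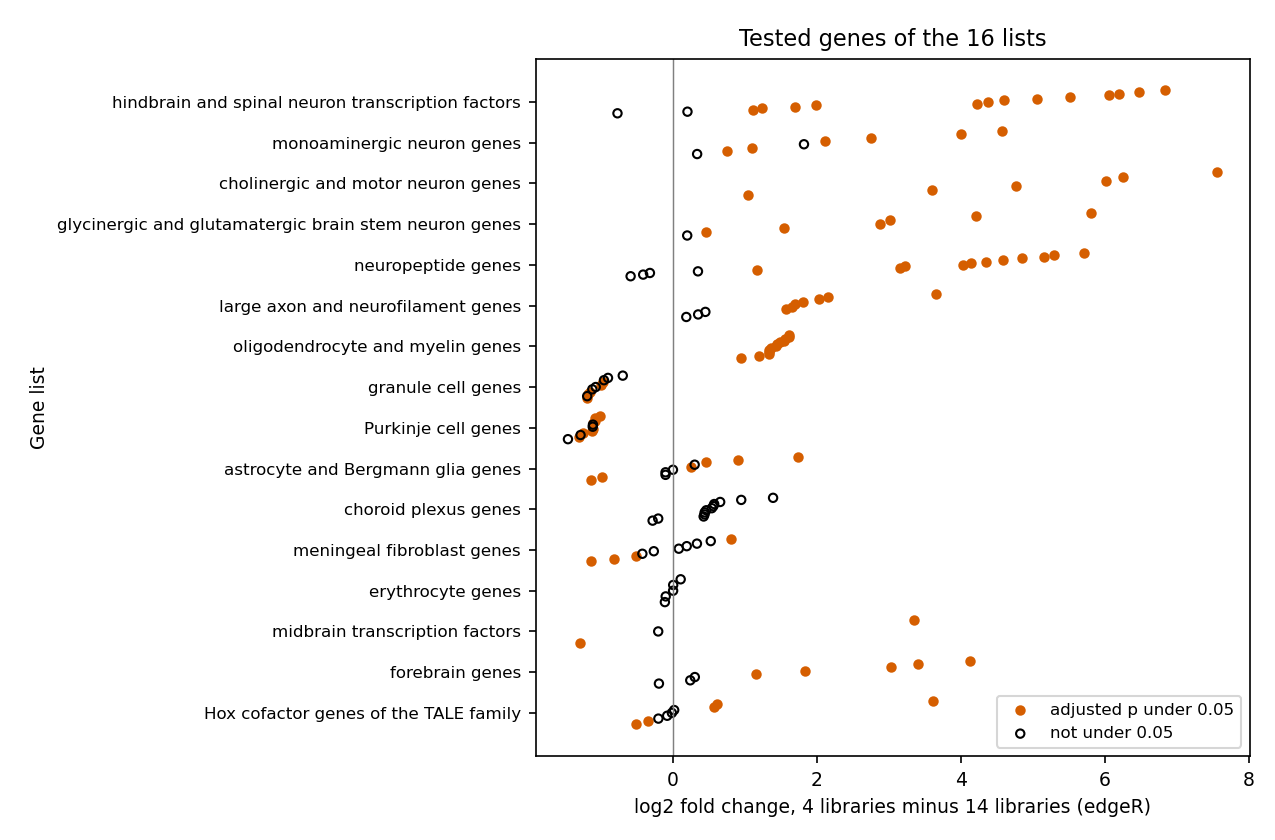
Log2 fold change of each tested gene of the 16 lists (horizontal axis, 4 libraries minus 14, edgeR), with filled points at an adjusted p under 0.05 and open points above it. Genes of hindbrain, cholinergic, glycinergic, peptide, axon and myelin lists lie mostly to the right, granule and Purkinje cell genes near -1, and choroid plexus and erythrocyte genes are all open.

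Other regions of the same mice were compared by the group of their cerebellum library. In cortex edgeR called 0 of 19737 genes higher (0%) and 0 lower, with 650 at an unadjusted p under 0.05, and DESeq2 called 5 higher and 4 lower. In striatum 92 of 19792 genes (0.465%) were higher and 119 (0.601%) lower. Without mouse M754 edgeR called 0 genes (2012 at an unadjusted p under 0.05). Among females only it also called 0 (2277 at an unadjusted p under 0.05), and the Hox-rich mice were all female. With genotype as a term 2 genes were called, Col1a1 and Cyp2g1. The first 2 of these fits hold fewer mice, and what the striatum calls rest on was not tested. Omp, a gene of olfactory neurons chosen after its values were seen, had 1.33, 1.54, 57.8 and 4.81 CPM in the striatum of mice M756, M761, M754 and M755, against 0.291 to 2.55 in the 14. Slc17a6 had 10.5, 34.4, 21.2 and 14.3 there, inside the range of the 14 (1.06 to 150.3), so this gene did not stand apart in that region. Of the listed genes tested in striatum, 9 of 144 were called, and in cortex 0 of 144.

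The study asked how the Mbd5 trap changes each region, so the Hox counts were set beside genotype. Mbd5 itself had 30.4 to 63.3 CPM (median 40.5) in the cerebellum of the 10 Mbd5+/GT mice and 44.1 to 73.4 (median 55.9) in the 8 WT mice, and the ranges overlapped. The Hox sum was 0.116 to 599 CPM (median 0.595) in Mbd5+/GT and 0.110 to 176 (median 0.603) in WT. After log2 transformation with a pseudocount of 1 the means were 2.05 ± 3.06 (SD, n = 10) and 2.32 ± 2.88 (n = 8), and an exact permutation test over 43758 splits gave p = 0.843 (two-sided, Benjamini-Hochberg adjusted over 4 tests p = 1). Group membership also gave p = 1 for genotype and p = 0.0915 for sex (adjusted p = 0.366) by two-sided Fisher's exact tests. By litter, with 1, 0 and 3 of the 4 mice in litters 1, 2 and 3, an exact permutation test gave p = 0.314 (adjusted p = 0.627). Litter 2 held only males and litter 1 only females, so sex and litter cannot be told apart fully.

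The surrogate variables that the genotype fit of cerebellum uses carried the same division. The first was 0.083, 0.199, 0.467 and 0.741 in mice M756, M761, M754 and M755 and -0.187 to -0.012 in the 14, while the second, at 0.126, 0.360, -0.043 and -0.137, lay inside the range of the 14 (-0.341 to 0.389). With both variables edgeR called 0 genes higher (0%) and 1 lower (0.00551%) of 18160 between genotypes, Mbd5, at a log2 fold change of -0.34 ± 0.05 (SE, adjusted p = 0.00912). A total of 499 genes had an unadjusted p under 0.05. Without surrogate variables edgeR called 0 genes, with 84 at an unadjusted p under 0.05, and Mbd5 stood at -0.39 ± 0.14. Leaving out the 4 Hox-rich libraries instead gave 0 calls, 218 at an unadjusted p under 0.05 and Mbd5 at -0.37 ± 0.17. In a setting chosen after seeing the data, only mouse M755 was left out and 2 surrogate variables were estimated anew. There edgeR called 1 gene lower of 18047, Mbd5, at -0.38 ± 0.05 (adjusted p = 0.00295), with 408 at an unadjusted p under 0.05.

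**Figure D5:**
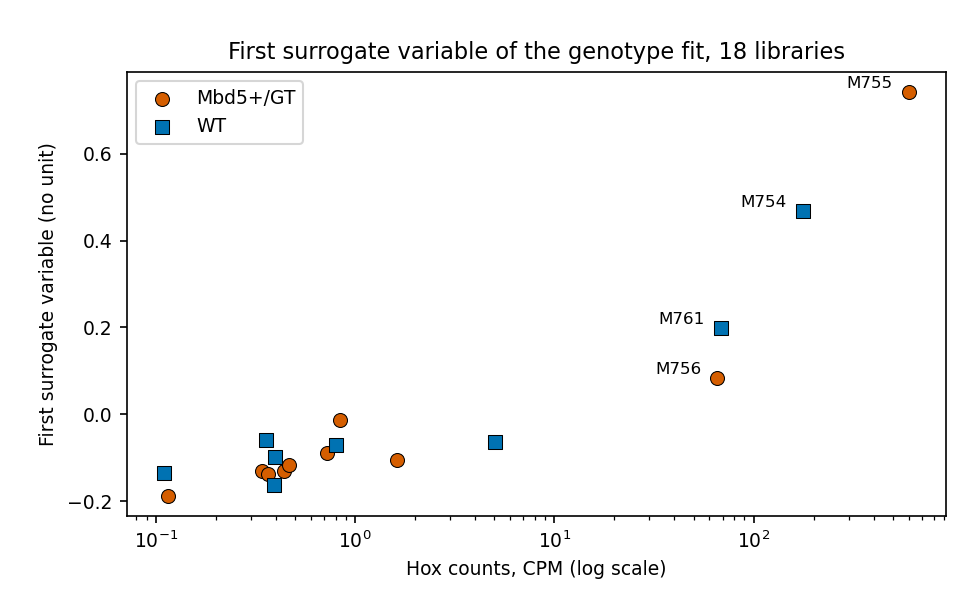
First surrogate variable of the genotype fit (vertical axis, no unit) against Hox CPM (log axis) in the 18 cerebellum libraries, with circles for Mbd5+/GT and squares for WT. The 4 Hox-rich libraries run from 0.083 to 0.741 in the order of their Hox counts, and the other 14 lie between -0.187 and -0.012 at under 10 Hox CPM.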

How the data were processed

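Polyadenylated RNA of cerebellum, cortex and striatum of 18 mice was sequenced. The deposited values were whole-number counts of reads per gene, which the authors made by aligning reads with STAR (version 2.4.2 in the submitters' processing notes) to GRCm38 and counting on Ensembl genes, with no normalization. Rows of the 92 ERCC spike-ins were left out, and 46488 of 47069 gene identifiers were named from GENCODE M21 (GRCm38).

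Levels are CPM, counts scaled to a library total of 1000000 gene counts. Genes were fitted where at least as many libraries as the smaller group holds, and at least 3, had over 4 counts. By Hox group this was 4, and 3 where a Hox-rich library was left out. By genotype it was 8, and 6 without the 4 Hox-rich libraries. The fits used TMM normalization and the robust quasi-likelihood test of edgeR 4.0.16. Benjamini-Hochberg adjustment ran over all genes tested, with the Hox genes left out of it only in the cerebellum fits by Hox group. The genotype fit used 2 surrogate variables from sva 3.50.0, as in the study. DESeq2 1.42.0 was an alternative, with its own adjustment that kept the Hox genes in, and the fits were tested on simulated data. Genes named were the 15 largest increases and 10 largest decreases with a mean of 1 or more CPM, the 10 most like the Hox counts (log2 values with a prior count of 2), and the first 2 and the most changed members of each list. The groups, the genes and the 16 lists were chosen with earlier results of these data known. Some list members that this rule names are not reported here.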

Additional observations from a re-analysis of the deposited data

Results flagged for a closer look

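The values of the 4 Hox-rich libraries, and the Hox sums of each genotype, were searched for a single library far from the rest of its group by Dixon's test, on 52 values in all. It marked 8, and 7 of the 8 were the library of mouse M755. Chance marks about 1 in 20 groups, but 4 of the 8 are Hox values, which chose the libraries, and Tac2, Chodl and Vdac3-ps1 were named for their change in them, so the number of marks supports nothing. In the library of mouse M755 the Hox genes of paralogue groups 6 to 8 summed to 260 CPM and those of groups 9 to 13 to 14.2, Tac2 had 23.9, Chodl 19.9 and Vdac3-ps1 1.68, and the astrocyte and Bergmann glia list summed to 5519. The Hox sum of mouse M755, at 599 CPM, also stood apart among the 10 Mbd5+/GT libraries, and that of mouse M754, at 176, among the 8 WT libraries.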

How the results depend on the processing

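No paired analysis was possible because a mouse number is shared only between regions, and the groups compared within a region are different mice. The groups were selected on these libraries, and 4 libraries that differ widely limit every estimate. Reads of overlapping or near-identical genes are uncertain. With a single limit of 20 Hox CPM the groups were identical.

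The 3641 higher and 2812 lower genes of cerebellum ranged from 2374 (without M755) to 4116 (without M756) and from 1340 (without M755) to 3438 (without M756) when single libraries were left out, and without M754 they were 2802 and 1429. Leaving out a Hox-poor library gave 3473 to 3826 and 2558 to 2996. With litter as a term 1666 genes were lower. In settings chosen after seeing the data, females alone gave 1368 higher and 225 lower, litter 3 alone 1000 and 34, and the fit without M754 and M755 859 and 173. Of 124 named or listed genes, 96 kept their direction and their side of the threshold in each planned setting in which they could be fitted, and 58 in the added ones as well. At least 10 counts in every library left out 56 of the 124, and of the 68 fitted in all planned settings 49 kept both. Sox14 reversed in 1, to -0.78 without M754 and M755. The causes were not tested.

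In cortex DESeq2 called 5 higher and 4 lower. In striatum, against 92 and 119, DESeq2 called 348 and 562, edgeR without the filter called 53 lower, and with genotype as a term 2 higher and 0 lower. Females alone gave 0 and 0, with 2277 genes at an unadjusted p under 0.05. Leaving out M754, M755, M756 or M761, also chosen after seeing the data, gave 0 to 343 higher and 0 to 339 lower striatum genes, lowest without M754 and highest without M756.

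Between genotypes 0 genes were lower without surrogate variables, with log2 Hox counts as a term (148 at an unadjusted p under 0.05) and without the 4 Hox-rich libraries, and 3 by DESeq2, Mbd5, Gpr26 and Wipf3. Mbd5 was then at -0.39, -0.39 and -0.37 on the log2 scale in the first 3 settings. The difference of Hox counts between genotypes kept its direction with a pseudocount of 0.1 (exact permutation p = 0.838) and within litters (p = 0.862).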
